A study of Mus musculus with 6 samples.

Results

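The genes described here encode 9 transcription factors of the neuroendocrine lineage, Insm1, St18, Prox1, Nfib, Nkx6-1, Nkx2-2, Isl1, Neurod4 and Neurod1. They were chosen by name out of 23284 genes counted by RNA-seq in preSC cells, and all 9 were found in the files. These are mouse cells that the labels describe as precursors of small cell lung cancer (SCLC), and no genotype is given in the labels used here. In the shCrebbp group, 3 libraries each carried a different lentiviral pLKO.1 short hairpin RNA against Crebbp, numbered 1, 2 and 5. Crebbp encodes CREB-binding protein, a histone acetyltransferase and transcriptional coactivator. In the control group, the empty pLKO.1 vector was in 2 libraries, shEmpty, which are control replicates 1 and 2. Control replicate 3, shNS, carried a hairpin named there as non-silencing. All cells therefore carried a lentiviral vector, and each hairpin was measured in 1 library of 1 cell line. Whether these were separate cultures is not stated, and every p-value below therefore reflects the spread among the 6 libraries, part of which may be technical and part a difference between hairpins.

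Pulmonary neuroendocrine cells are rare airway cells that store peptides and amines in dense core granules, and most SCLC shares their programme. Proneural basic helix-loop-helix (bHLH) factors start such programmes, and zinc finger factors such as Insm1 act with or after them to favour secretory genes over those of other lineages. In SCLC, Neurod1 marks a subtype, and Nfib is a known driver of metastasis in mouse models. Nkx2-2, Nkx6-1, Isl1 and Neurod1 are best known from pancreatic islets and the developing neural tube, where they specify endocrine cells and neurons.

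Gene reads totalled 13622000 to 14651000 in the shCrebbp libraries and 13688000 to 19805000 in the controls, so that a depth-normalised level (CPM) of 1 stood for 13.6 to 19.6 reads. The targeted gene was at 46.2, 58.3 and 48.9 CPM with hairpins 1, 2 and 5, against 66.2, 69.6 and 69.4 CPM in the shEmpty pair and shNS. Its log2 fold change of -0.42 ± 0.10 (standard error, SE) did not pass the threshold of 0.05 (edgeR adjusted p = 0.0999). DESeq2 called it lower (adjusted p = 0.0163), as did edgeR once hairpin 2 was left out (adjusted p = 0.0478). Neuroendocrine identity markers were abundant in every library: all 8 on the list were tested. Among them Calca, the calcitonin and CGRP gene, was at 875 ± 267 CPM in shCrebbp libraries and 1803 ± 209 CPM in controls (SD, n = 3 each; edgeR adjusted p = 0.0558). In bulk RNA, fewer cells that express a gene and less of its RNA per cell cannot be told apart.

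Markers of other cell types were mostly at low levels, given here as summed CPM per list. Of 10 tuft-like markers, 1 was tested and the sum was 6.98 to 10.4 CPM in shCrebbp libraries and 12.8 to 14.1 CPM in controls, nearly all of it Avil, with Gnat3 at 0 in all libraries. The tuft cell regulator Pou2f3 had 0 reads in the shCrebbp libraries and 1 read in the controls together. Of 10 markers of non-neuroendocrine variants, 3 were tested, Ezr, Hes1 and Yap1. None of the 3 was called by edgeR, though each had an unadjusted p under 0.05, as 16.5% of all tested genes did, and stood below every control in all 3 hairpin libraries, as 1473 of the 13390 tested genes did. Ezr, the most abundant, averaged 146 ± 14.7 CPM in shCrebbp libraries and 181 ± 12.9 CPM in controls (edgeR adjusted p = 0.181). The sum over the list was 154 to 184 CPM in shCrebbp libraries and 197 to 233 CPM in controls, with Cav1 at 0. Of 8 fibroblast markers, 2 were tested, Dcn and Pdgfra. Their list summed to 13.3 to 63.4 CPM in shCrebbp libraries and 37.7 to 45.2 CPM in controls, with Col3a1 at 0. Most of that was Dcn, averaging 34.96 ± 25.3 CPM in shCrebbp libraries and 39.15 ± 3.98 CPM in controls (SD, n = 3 each). The 8 leukocyte markers summed to 3.67 to 5.44 CPM in shCrebbp libraries and 3.01 to 5.40 CPM in controls, with Cd68 the 1 gene tested and Emr1 and Tyrobp at 0. The 6 endothelial markers summed to 164 to 412 CPM in shCrebbp libraries and 407 to 439 CPM in controls. Nearly all of that was Vwf, at 163, 388 and 412 CPM with hairpins 1, 2 and 5 and 405 to 437 CPM in controls, while Pecam1 averaged 0.711 ± 0.230 CPM in shCrebbp libraries and 0.887 ± 0.195 CPM in controls (SD, n = 3 each), and Emcn was at 0. The 6 alveolar type 2 markers summed to 70.1 to 71.6 CPM in shCrebbp libraries and 75.4 to 79.0 CPM in controls, mostly Abca3, with Sftpc averaging 0.645 ± 0.324 CPM in shCrebbp libraries and 1.95 ± 0.739 CPM in controls. The 4 club cell markers summed to 0.0681 to 0.285 CPM in shCrebbp libraries and 0.0610 to 0.153 CPM in controls, with Scgb3a2 at 0. Whether any of these lists bears on the results below was not tested.

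The upstream sequences of 3 members are shown, the proneural paralogues Neurod4 and Neurod1 and the homeobox gene Nkx2-2, because their levels had the largest spread between hairpin libraries, apart from Isl1, which had at most 2 reads. They come from the RefSeq promoter entries (build GRCm38.p6, minus strand for all 3) and are written 5′ to 3′ along the gene. For Neurod1 and Nkx2-2 they run up to the first base of any GENCODE transcript of the gene. Capitals mark E-boxes, the CANNTG sites that bHLH factors bind. Of 2 overlapping Neurod4 entries the upstream one is shown, chr10:130280255-130280504. This stretch runs up to the start given by that entry, and no GENCODE transcript of the gene was found in it. The Neurod1 stretch is chr2:79456752-79456886 and the Nkx2-2 stretch chr2:147186457-147186652.
Neurod4: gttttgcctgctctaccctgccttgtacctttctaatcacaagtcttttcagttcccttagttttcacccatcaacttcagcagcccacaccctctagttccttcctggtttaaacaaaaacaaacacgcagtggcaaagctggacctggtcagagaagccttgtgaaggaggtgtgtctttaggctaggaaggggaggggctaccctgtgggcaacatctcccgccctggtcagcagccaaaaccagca
Neurod1: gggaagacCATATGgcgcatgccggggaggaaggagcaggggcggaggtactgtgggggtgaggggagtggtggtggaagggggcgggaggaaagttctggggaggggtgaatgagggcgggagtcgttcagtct
Nkx2-2: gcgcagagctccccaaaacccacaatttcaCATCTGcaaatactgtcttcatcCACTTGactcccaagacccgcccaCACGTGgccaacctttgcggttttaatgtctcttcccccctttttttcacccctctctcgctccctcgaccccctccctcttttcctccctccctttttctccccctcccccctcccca

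These 3 stretches hold 0 E-boxes in Neurod4, 1 in Neurod1 and 3 in Nkx2-2. The second Neurod4 entry holds 1 E-box, which begins at base 5 of the gene as that entry places its start and is not shown. In all, 6 of the 9 members had a promoter entry, 8 windows of 300 bases each, and all were searched on both strands. The full cAMP response element TGACGTCA, the site of CREB, to which CREB-binding protein binds, was in none of the 8 windows and in 1.79% of all 32851 promoter windows. The shorter form TGACG, which the full element also contains, was found 1 time in the Nkx6-1 window and 2 times in the Isl1 window, and in 20.8% of all windows. In the full windows, CANNTG was found 3 times for Nkx2-2 and 2 times for the first Prox1 entry. It was found 1 time each for Neurod1, the second Neurod4 entry and Isl1, and not in the remaining windows. Among all promoter windows, 72.3% held it. The stretches shown above are shorter than these windows, so their counts do not compare directly with that share. All 250 upstream bases of the Nkx6-1 entry lie inside an annotated Nkx6-1 transcript and are not shown. A match is a description of letters and not a binding site.

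Per length of all exons, 1 member was highly abundant, 3 were at intermediate levels and 5 were scarce, and the 7 members with reads in both groups had the same order in both. Levels between genes are given as CPM per kilobase of exon (CPM per kb). Insm1, a zinc finger repressor required for neuroendocrine differentiation, averaged 272 ± 46.2 CPM per kb in shCrebbp libraries and 237 ± 8.86 CPM per kb in controls (SD, n = 3 each), above 99.1% of 13244 ranked genes in shCrebbp libraries and above 99.0% in controls. St18, a zinc finger factor of the Myt1 family, averaged 19.99 ± 1.44 CPM per kb in shCrebbp libraries and 21.6 ± 1.23 CPM per kb in controls. Prox1, a homeobox factor of lymphatic and liver development, averaged 16.6 ± 2.87 CPM per kb in shCrebbp libraries and 16.4 ± 0.951 CPM per kb in controls. Nfib, a nuclear factor I gene, averaged 9.95 ± 1.49 CPM per kb in shCrebbp libraries and 11.9 ± 0.736 CPM per kb in controls. Nfib, the lowest of these 4 genes, lay above 58.7% of the ranked genes in shCrebbp libraries and above 64.0% in controls.

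The other 5 members were scarce. Nkx6-1, a homeobox repressor of beta cell and motor neuron progenitors, averaged 3.10 ± 0.660 CPM per kb in shCrebbp libraries and 1.15 ± 0.167 CPM per kb in controls. It stood above 29.2% of ranked genes in shCrebbp libraries and above 15.7% in controls. Neurod4, a bHLH factor of retinal and cranial neurons, averaged 1.81 ± 1.14 CPM per kb in shCrebbp libraries and 0.549 ± 0.285 CPM per kb in controls. Neurod1 averaged 0.517 ± 0.273 CPM per kb in shCrebbp libraries and 0.420 ± 0.135 CPM per kb in controls. It stood above 7.20% of ranked genes in shCrebbp libraries and above 6.43% in controls. Nkx2-2 and Isl1 had no read in any control. In shCrebbp libraries the ranges of neighbours in this order overlapped for St18 and Prox1, Nkx6-1 and Neurod4, Neurod4 and Neurod1, Neurod1 and Nkx2-2, and Nkx2-2 and Isl1. In controls they overlapped for Neurod4 and Neurod1 and for Nkx2-2 and Isl1. With the longest transcript as length in place of all exons, Nfib stood at 16.3 CPM per kb in shCrebbp libraries, below Prox1 at 17.6, and at 19.4 CPM per kb in controls, above Prox1 at 17.3. The order of those neighbours therefore depends on the gene model.

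**Figure D1:**
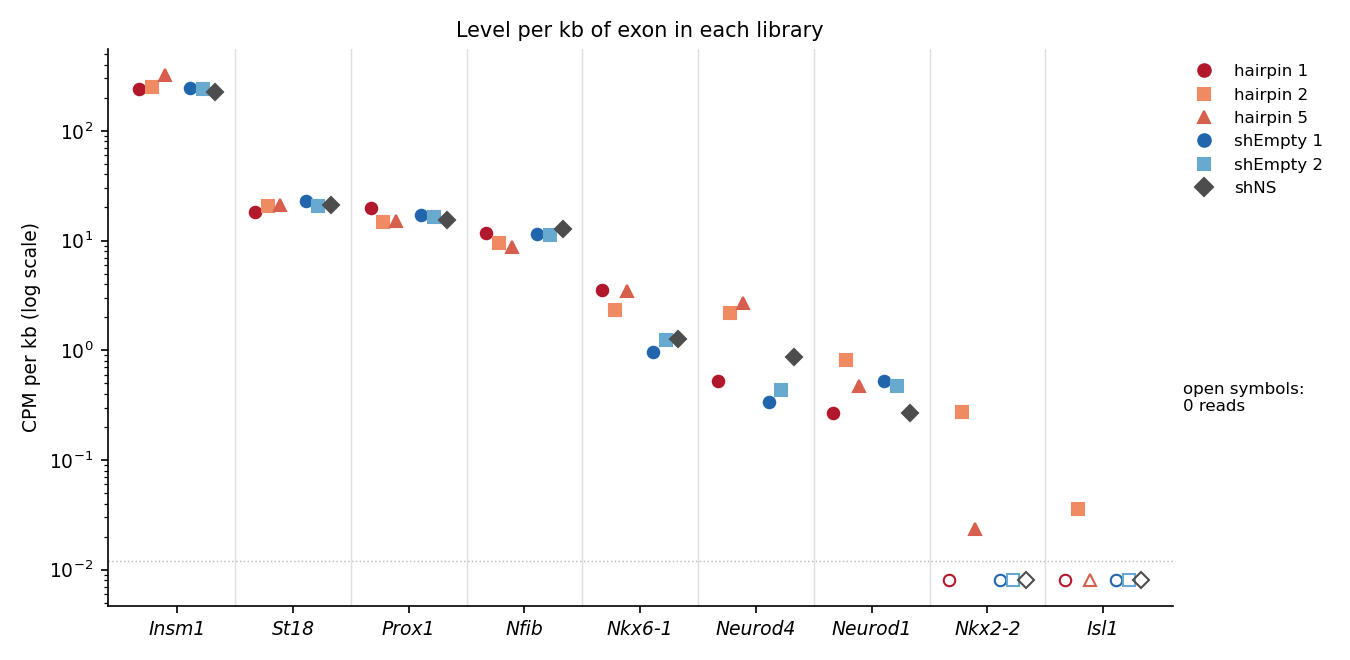
Level of each member in each of the 6 libraries, as CPM per kb of exon on a log axis, with shCrebbp libraries (hairpins 1, 2 and 5) left of the controls (shEmpty 1 and 2 are control replicates 1 and 2; shNS is control replicate 3). Insm1 sits between 227 and 325 CPM per kb in every library, while Nkx2-2 and Isl1 have open symbols, meaning 0 reads, in all 3 controls.

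Between the groups, 1 of the 7 tested members rose, Nkx6-1, and none fell. Over all 13390 tested genes, 0.276% were called higher and 0.978% lower, 1.25% in all (edgeR's quasi-likelihood test with Benjamini-Hochberg adjustment, threshold 0.05). An unadjusted p under 0.05 was reached by 2 of the 7, Nkx6-1 and Neurod4, against 16.5% of all tested genes. The log2 fold change was positive in 5 of the 7, against 53.2% of tested genes, with a median of 0.20 against 0.015 over all tested genes. The members were chosen with earlier results of these data known, so these shares are descriptions and the list was not tested as a group. All 7 tested members passed the filter level of 0.700 CPM in each of the 6 libraries, so none was tested only because the shCrebbp group was high. Nkx2-2 and Isl1 did not pass the filter and have no test. DESeq2 also called 1 of the 7, Nkx6-1, where it called 5.45% of all genes, and limma-voom with quality weights called 2, Nkx6-1 and Neurod4, where it called 5.09%.

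Nkx6-1 had 11.02, 7.34 and 10.8 CPM with hairpins 1, 2 and 5 (150, 103 and 159 reads), against 3.01, 3.90 and 3.94 CPM in control replicates 1, 2 and 3 (59, 64 and 54 reads). Each hairpin library lay above each control, with hairpin 2 the lowest of the 3 and control replicate 1 the lowest of all. Over all tested genes, 11.4% had the 3 hairpin libraries above all controls. The mean was 9.73 ± 2.07 CPM in shCrebbp libraries and 3.62 ± 0.524 CPM in controls (SD, n = 3 each), a fitted 2.69-fold rise. The log2 fold change was 1.43 ± 0.23 (SE), with a 95% interval of 0.90 to 1.96 and an edgeR adjusted p of 0.0307. The call was lost without control replicate 1 (log2 fold change 1.31, edgeR adjusted p = 0.179), without control replicate 2 (1.48, adjusted p = 0.192) and without shNS (1.49, adjusted p = 0.100). Without either shEmpty library edgeR called 0 genes in all, with 1332 and 1238 at an unadjusted p under 0.05.

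Neurod4 stood at 1.76, 7.34 and 9.05 CPM with hairpins 1, 2 and 5 (24, 103 and 133 reads), against 1.12, 1.46 and 2.92 CPM in control replicates 1, 2 and 3 (22, 24 and 40 reads). Hairpins 2 and 5 lay above all controls, hairpin 1 lay among them, and shNS was the highest control. The mean was 6.05 ± 3.81 CPM in shCrebbp libraries and 1.84 ± 0.954 CPM in controls (SD, n = 3 each). Its log2 fold change of 1.75 ± 0.59 (SE) was larger in size than that of Nkx6-1 but did not pass (95% interval 0.38 to 3.11, edgeR adjusted p = 0.197). Over the alternatives tried, the adjusted p ranged from 0.025 to 0.570. It passed when hairpin 1 was left out (log2 fold change 2.19, edgeR adjusted p = 0.0328), and the quality-weighted limma-voom analysis called it at an adjusted p of 0.025. DESeq2 gave an adjusted p of 0.0548.

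Neurod1 was near the counting limit, at 0.735, 2.21 and 1.29 CPM with hairpins 1, 2 and 5 (10, 31 and 19 reads), against 1.43, 1.28 and 0.730 CPM in control replicates 1, 2 and 3 (28, 21 and 10 reads). The groups overlapped, hairpin 2 being the highest library and shNS and hairpin 1 the lowest. The log2 fold change was 0.28 ± 0.45 (95% interval -0.75 to 1.31, edgeR adjusted p = 0.823), an interval wide enough to hold a 2-fold change in the upward direction. Without hairpin 2 it was -0.20. In GRCm38, exons of Neurod1 overlap exons of Cerkl on the same strand, which had 0 to 3 reads, and of an antisense transcript that is not among the counted names. The proneural pair thus differed in pattern by hairpin: both were highest or second highest among the 6 libraries with hairpin 2, and only Neurod4 lay outside the control range with hairpin 5.

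**Figure D2:**
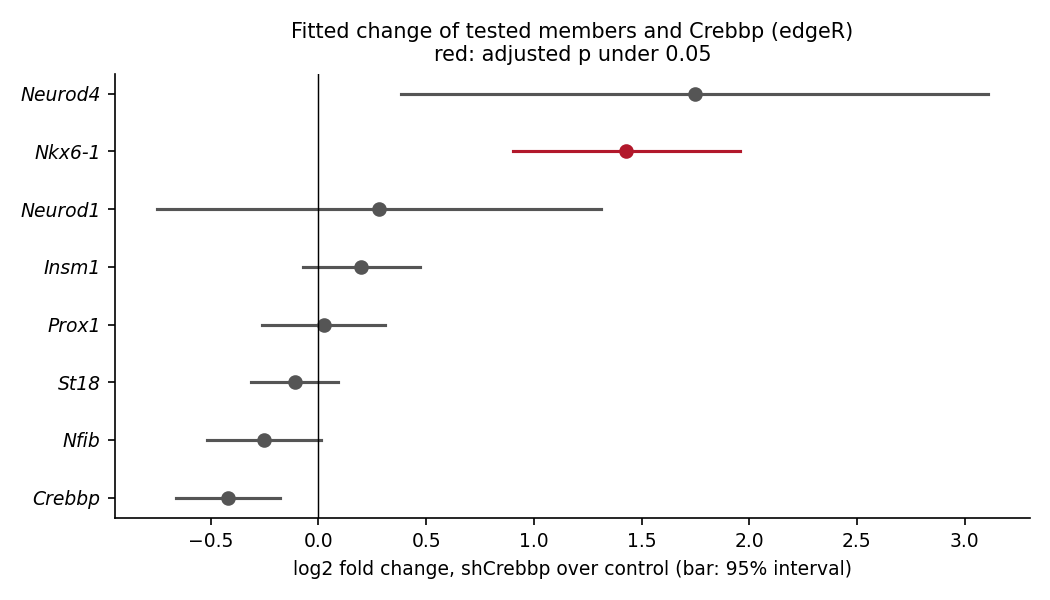
Fitted log2 fold change of each tested member and of Crebbp, shCrebbp over control, with bars giving the 95% interval from edgeR. Nkx6-1 at 1.43 is the one gene drawn in red for an adjusted p under 0.05, while Neurod4 has the widest interval, 0.38 to 3.11.

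The 4 abundant members did not pass. Insm1 stood at 748, 776 and 1009 CPM with hairpins 1, 2 and 5, against 753, 749 and 704 CPM in control replicates 1, 2 and 3. Hairpin 1 lay among the controls, hairpin 2 lay above all of them, and hairpin 5 was the highest of the 6. Its fitted log2 fold change was 0.20 ± 0.12 (95% interval -0.07 to 0.47, edgeR adjusted p = 0.458), and 0.04 without hairpin 5. Over the alternatives the log2 value stayed positive, between 0.04 and 0.29.

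St18 stood at 118, 133 and 136 CPM with hairpins 1, 2 and 5, against 149, 134 and 136 CPM in control replicates 1, 2 and 3. Hairpin 1 was the lowest library and control replicate 1 the highest, and hairpins 2 and 5 lay close to control replicates 2 and 3. Its fitted log2 fold change was -0.11 ± 0.09 (95% interval -0.31 to 0.09, edgeR adjusted p = 0.595). Prox1 stood at 167, 124 and 127 CPM with hairpins 1, 2 and 5, against 145, 138 and 129 CPM in control replicates 1, 2 and 3. Hairpin 1 was above and hairpins 2 and 5 below every control, so that the hairpins surrounded the controls. On the log2 scale the fold change was 0.02 ± 0.12 (95% interval -0.26 to 0.31, edgeR adjusted p = 0.958). An antisense transcript overlaps Prox1 exons in GRCm38 and is not among the counted names, so its reads cannot be told from those of Prox1 unless strand was used.

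Nfib stood at 174, 141 and 131 CPM with hairpins 1, 2 and 5, against 173, 169 and 190 CPM in control replicates 1, 2 and 3. Hairpins 2 and 5 lay below all controls and hairpin 1 among them, the same split of the hairpins as for Neurod4 and Insm1 but in the opposite direction. On the log2 scale the fold change was -0.25 ± 0.12 (95% interval -0.52 to 0.01, edgeR adjusted p = 0.327). The adjusted p was between 0.067 and 0.596 over the 14 alternatives.

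Nkx2-2 had 0, 11 and 1 reads with hairpins 1, 2 and 5 and 0 reads in each control. The 11 reads with hairpin 2 (exact Poisson 95% interval 5.49 to 19.7) corresponded to 0.784 CPM. A limit of 3 reads for a count of 0 corresponds to at most 0.219 CPM in a control library. The observed value with hairpin 2 was at least 3.58-fold higher than a control at or under that limit, without the counting error of its own 11 reads. The kind of 95% interval given for those 11 reads reaches 3.69 reads for a count of 0, and with that bound the fold would be smaller. Intervals and limits of this kind cover counting error only. Of the 5791 genes without a control read, 5 had at least 10 reads with hairpin 2, 3 with hairpin 1 and 1 with hairpin 5. An antisense transcript overlaps Nkx2-2 exons in GRCm38 and is not among the counted names. Isl1, a LIM homeobox factor of motor neurons and islets, had 2 reads with hairpin 2 and 0 in each of the other 5 libraries, which is below the 3 reads that a count of 0 allows.

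Taken hairpin by hairpin, on log2 CPM with a prior count of 2, differences of over 1.5-fold from the control mean were all upward among the tested members. With hairpin 1 this was 1 of 7, Nkx6-1, against 6.80% of all tested genes. With hairpin 2 it was 3 of 7, Nkx6-1, Neurod4 and Neurod1, against 8.19%. With hairpin 5 it was 2 of 7, Nkx6-1 and Neurod4, against 3.38%. Nkx6-1, Neurod4 and Neurod1 were the scarcest tested members, where counting error is largest, and the shares of all tested genes are not matched for level. Neurod1 with hairpin 2 rests on 31 reads (exact Poisson 95% interval 21.1 to 44). None of the 7 was over 1.5-fold lower with any hairpin on this scale, where 9.92%, 7.15% and 5.49% of tested genes were, for hairpins 1, 2 and 5. Neurod1 with hairpin 1 was close to the 1.5-fold limit, at a log2 ratio of -0.516, or -0.565 with a prior count of 0.5. Against the plain mean of the control CPM (1.15), its 0.735 CPM was over 1.5-fold lower. Crebbp itself had a log2 ratio of -0.57, -0.23 and -0.48 with hairpins 1, 2 and 5. Each hairpin is 1 library, so these ratios have no replicate check.

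The spread within the shCrebbp group, as SD over mean, exceeded that within the controls in all 7 tested members. That was also so in 78.9% of all tested genes. For Insm1 it was 16.9% in shCrebbp libraries and 3.74% in controls, for Prox1 17.3% in shCrebbp libraries and 5.81% in controls, and for Nfib 15.0% in shCrebbp libraries and 6.21% in controls. St18 had the smallest spread of the 7 within the shCrebbp group, at 7.22% in shCrebbp libraries and 5.71% in controls. The control vectors were compared in an edgeR fit with 3 groups that assumes the lone shNS library to vary like the others. That fit pools the spread of all 6 libraries. Counts lay further apart within the shCrebbp group (chi-square over its degrees of freedom 20.4 to 28.4 by pair) than within controls (4.08 to 10.9). With 1 shNS library and this pooled spread, the fit cannot show that the control vectors are alike. Among the members, Neurod4 had the largest difference between the control vectors, at 1.17 ± 0.86 (SE, log2, shNS over shEmpty).

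**Figure D3:**
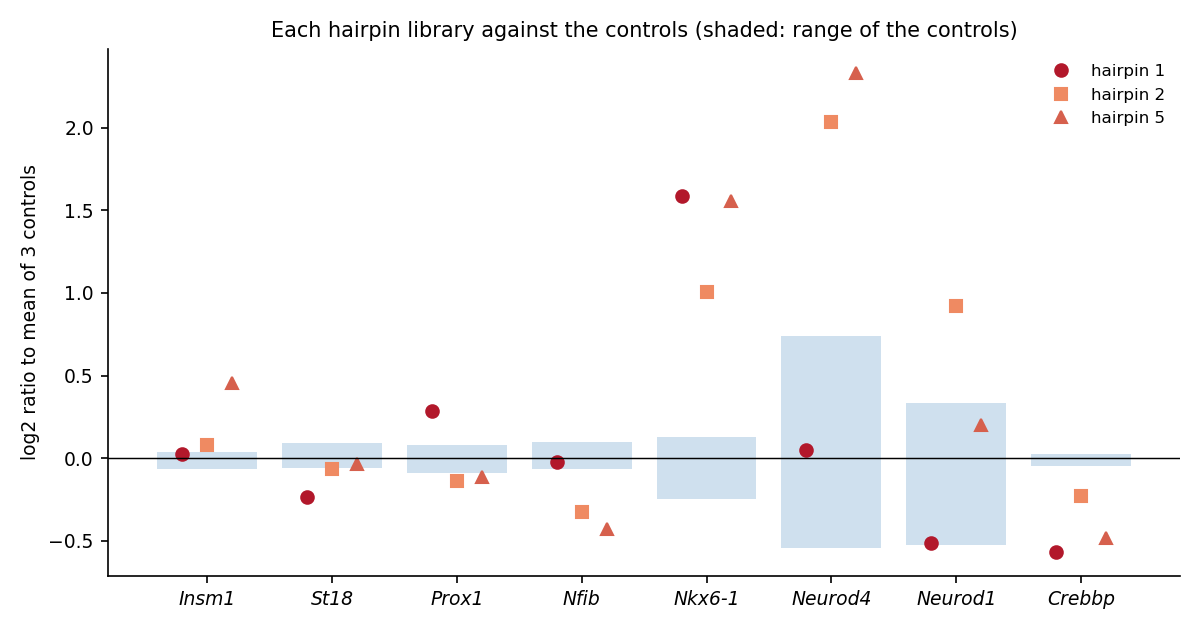
Log2 ratio of each hairpin library to the mean of the 3 controls for the 7 tested members and Crebbp, with the range of the 3 controls shaded. Nkx6-1 lies above the shading with every hairpin, Neurod4 with hairpins 2 and 5, and Crebbp lies below it with every hairpin.

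The genes nearest in pattern were found by the root mean square difference of log2 CPM, centred on each gene's mean over the 6 libraries, among 10606 other genes (10607 for Neurod1) of at least 2 average log2 CPM. For Nkx6-1 these were Tspan6, a tetraspanin gene (0.24), and Tro, the trophinin gene (0.28). Their log2 fold changes were 1.54 for Tspan6 (edgeR adjusted p = 0.0511) and 1.08 for Tro (adjusted p = 0.00593). For Neurod4 they were Scml2 (0.39) and Pros1, the protein S gene (0.44). No gene came within 0.2 of either member. Neurod1 was nearest to Dcdc2a (0.09) and Mgat4c (0.18), and 6 genes came within 0.2. The even members had many genes that close, 3888 for Insm1 (Dsel and Mtcp1 first), 6303 for St18 (Srsf5 and Aldh5a1), 5093 for Prox1 (Bri3bp and Gnai2) and 2999 for Nfib (Dph3). All values come from the same 6 libraries that gave the fold changes.

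Paralogues in the members' families were tested in 12 of 22 cases, and edgeR called none. An unadjusted p under 0.05 was seen for 4, against 16.5% of all tested genes. DESeq2 called Nkx2-5 higher, where it called 5.45% of all genes, limma-voom with quality weights called Nfix lower, where it called 5.09%, and limma-voom without weights called none. The median log2 fold change was 0.13, against 0.015 over all tested genes. Nkx2-5, a homeobox gene best known from heart, stood at 4.12, 8.34 and 0.817 CPM with hairpins 1, 2 and 5, against 0.971, 1.10 and 1.02 CPM in control replicates 1, 2 and 3 (log2 fold change 2.09 ± 0.69, edgeR adjusted p = 0.188). Hairpins 1 and 2 lay above the controls and hairpin 5 below. Insm2, the Insm1 paralogue, averaged 3.88 ± 1.04 CPM in shCrebbp libraries and 2.30 ± 0.314 CPM in controls (log2 fold change 0.75 ± 0.28, adjusted p = 0.242). Paralogues at 0 in all libraries were Neurod2, Neurod6, Neurog1, Nkx2-3 and Nkx2-6. The lung specifier Nkx2-1 averaged 534 ± 48.2 CPM in shCrebbp libraries and 533 ± 20.9 CPM in controls, and the St18 paralogue Myt1 averaged 184 ± 4.8 CPM in shCrebbp libraries and 186 ± 11.8 CPM in controls.

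A few scarce transcription factor genes of the lists, picked after their values were seen, varied between hairpin libraries and were not tested as a group. The proneural gene Neurog2 had 1, 90 and 6 reads with hairpins 1, 2 and 5, and 11, 8 and 2 reads in control replicates 1, 2 and 3. Mnx1, a homeobox gene of motor neurons and islets, had 0, 16 and 1 reads with hairpins 1, 2 and 5, and 0 in each control. Myt1l, a neuronal Myt1 paralogue, was at 2.72, 10.6 and 1.02 CPM with hairpins 1, 2 and 5, against 0.460, 1.22 and 2.19 CPM in control replicates 1, 2 and 3. In these 3 genes, as in Nkx2-2, hairpin 2 was the high library. Neurog3, which starts islet differentiation, followed another order, at 2.21, 11.3 and 26.4 CPM with hairpins 1, 2 and 5, and 10.5, 11.04 and 9.27 CPM in control replicates 1, 2 and 3. The islet factor gene Pdx1 had 27, 5 and 12 reads with hairpins 1, 2 and 5, and 3, 2 and 2 reads in control replicates 1, 2 and 3. Hairpin 1 had the most, and each hairpin library had more reads than any control, hairpin 2 only by 5 against 3. Pdx1 did not pass the filter and was not tested. Over all tested genes, 11.4% had the 3 hairpin libraries above all controls.

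**Figure D4:**
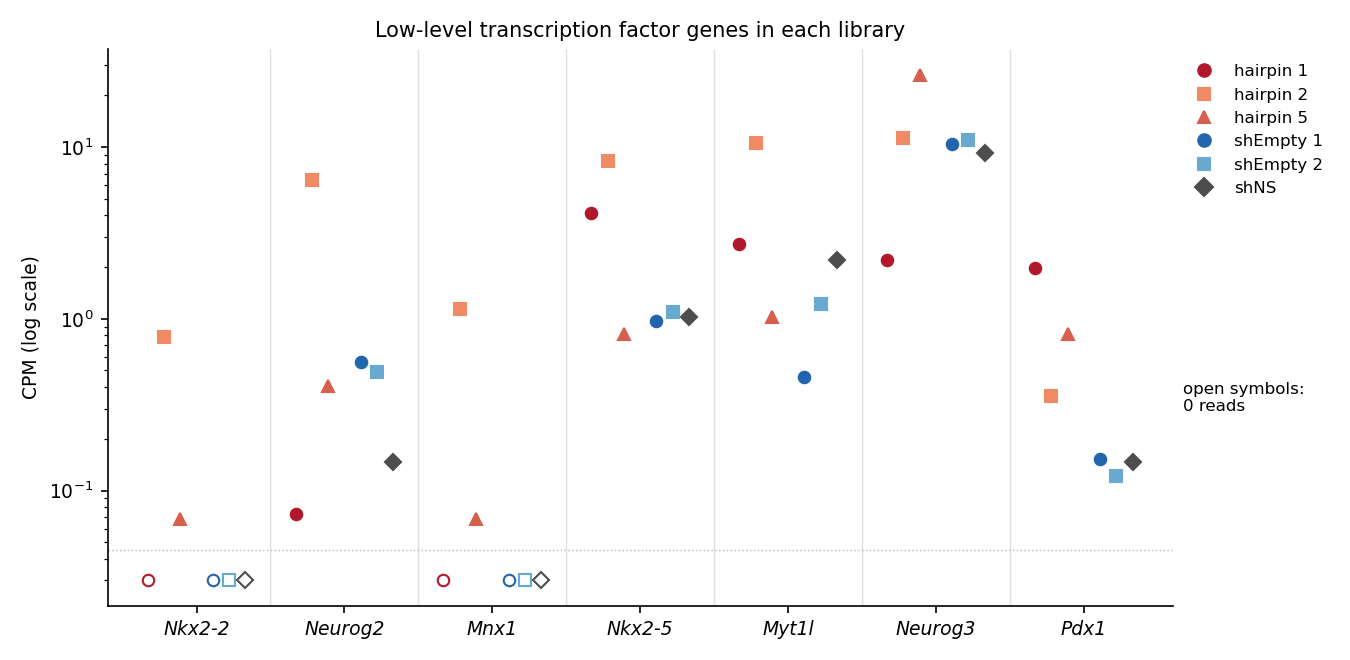
CPM of Nkx2-2 and 6 other low-level transcription factor genes in each library, on a log axis, with shCrebbp libraries left of the controls and open symbols for 0 reads. Nkx2-2, Neurog2, Mnx1, Nkx2-5 and Myt1l are highest with hairpin 2, Neurog3 with hairpin 5 and Pdx1 with hairpin 1.

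The partners of the members and the genes listed with them gave no edgeR calls. Of 13 bHLH partners and antagonists, all were tested, 0 were called and 2 had an unadjusted p under 0.05, against 16.5% of all tested genes, with a median log2 fold change of 0.02. Those were Hes1, the Notch-induced repressor of proneural genes, at 9.996 ± 3.03 CPM in shCrebbp libraries and 21.4 ± 3.83 CPM in controls (log2 fold change -1.10 ± 0.24, edgeR adjusted p = 0.0772), and Id4, an inhibitor of bHLH binding, at 235 ± 20.1 CPM in shCrebbp libraries and 348 ± 54.1 CPM in controls (-0.57 ± 0.12, adjusted p = 0.0794). DESeq2 and limma-voom with quality weights called both lower, where they called 5.45% and 5.09% of all genes, and limma-voom without weights called neither. The next list held 12 LIM domain genes and cofactors. Lhx1 and Lhx2 among them are LIM homeobox genes like Isl1, and the others partner such factors. Of the 12, 10 were tested, 0 were called and 1 had an unadjusted p under 0.05 in edgeR (16.5% of all tested genes), with a median of -0.015. That was Lhx2, at 39.2 ± 1.69 CPM in shCrebbp libraries and 27.8 ± 2.63 CPM in controls (0.50 ± 0.10, adjusted p = 0.0640), called higher by DESeq2 and by limma-voom with quality weights and not by limma-voom without weights. The second by p was Lmo2, at 18.5 ± 3.06 CPM in shCrebbp libraries and 23.6 ± 3.81 CPM in controls (adjusted p = 0.345).

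All 16 repressor cofactors, through which Insm1 and the Nkx factors act, were tested, and 0 were called by edgeR, DESeq2 or either form of limma-voom, with 0 at an unadjusted p under 0.05 in edgeR and a median log2 fold change of 0.06. Nearest to the threshold were the CoREST genes Rcor1, at 33.9 ± 7.72 CPM in shCrebbp libraries and 43.5 ± 7.62 CPM in controls (adjusted p = 0.392), and Rcor2, at 48.1 ± 11.8 CPM in shCrebbp libraries and 39.1 ± 0.360 CPM in controls (adjusted p = 0.424). Of 30 other regulators of neuroendocrine or related lineages, 18 were tested, 0 were called and 3 had an unadjusted p under 0.05 (16.5% of all tested genes), with a median of -0.08. Fev, a serotonergic ETS factor gene, averaged 14.1 ± 4.43 CPM in shCrebbp libraries and 30.5 ± 3.67 CPM in controls (-1.11 ± 0.23, edgeR adjusted p = 0.0640), and DESeq2 and limma-voom with quality weights called it lower. Runx1t1, a corepressor gene, averaged 257 ± 1.74 CPM in shCrebbp libraries and 290 ± 7.89 CPM in controls (adjusted p = 0.260). Limma-voom without weights called none of the 18.

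Of 28 neuroendocrine differentiation genes, the granule, synaptic and surface genes such factors are known to act on, all were tested and edgeR called none. At an unadjusted p under 0.05 there were 11, where 16.5% of all tested genes were, with 17 of 28 fold changes negative and a median of -0.14. DESeq2, which called 5.45% of all genes, and limma-voom with quality weights, which called 5.09%, each called 5 of the 28, Calca, Ret and Cacna1a lower and Ncam1 and Stmn2 higher, and limma-voom without weights called Calca and Ret lower. Ret, a receptor tyrosine kinase gene, averaged 166 ± 33.5 CPM in shCrebbp libraries and 290 ± 31.6 CPM in controls (edgeR adjusted p = 0.0505). Cacna1a, a calcium channel gene, averaged 64.9 ± 4.46 CPM in shCrebbp libraries and 87.6 ± 1.89 CPM in controls (adjusted p = 0.0549). Stmn2, a neuronal microtubule regulator gene named outside the rule, stood at 7.86, 59.8 and 13.2 CPM with hairpins 1, 2 and 5, against 0.715, 2.56 and 4.82 CPM in control replicates 1, 2 and 3. It was highest with hairpin 2, as Nkx2-2 and Neurog2 were.

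**Figure D5:**
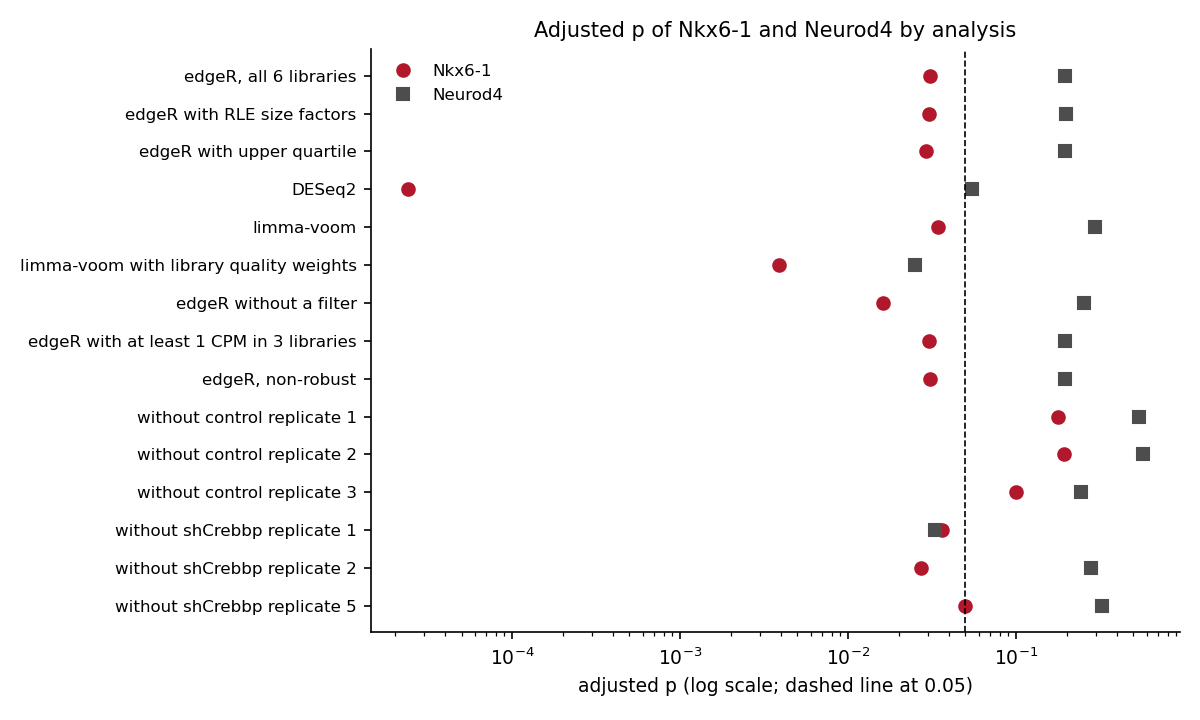
Adjusted p of Nkx6-1 and Neurod4 over all tested genes in the main edgeR analysis and in each of 14 alternatives, on a log axis with a dashed line at 0.05. Nkx6-1 lies left of the line except in the 3 analyses without a control library, and close to it without hairpin 5 (adjusted p = 0.0495), and Neurod4 lies left of it in 2 analyses.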

How the data were processed

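Per the labels' protocols, messenger RNA was isolated with oligo(dT) beads from preSC cells, and 3 libraries with Crebbp hairpins and 3 control libraries were sequenced. The authors deposited unnormalized read counts for each gene symbol. Per the submitters' processing notes, TopHat2 2.0.12, HTSeq 0.6.1 and the build mm9 were used. The annotation and strand setting were not given in the sources used here, so overlapping and antisense genes are uncertain. HTSeq's 5 summary rows, 24.8% to 28.9% of counts, were dropped. All 6 libraries entered edgeR 4.0.16 (R 4.3.3; TMM, filterByExpr, robust quasi-likelihood test, Benjamini-Hochberg adjustment) with group as the only term. CPM is TMM-normalized, and log2 CPM uses a prior count of 2. The SE and 95% interval derive from the fold change with its test statistic. Exon lengths and overlaps come from GENCODE M21 (GRCm38), which matched 22811 of 23284 names; no mm9 coordinates are given. Counts of any pair of libraries within a group were further apart than sampling alone gives (chi-square over its degrees of freedom 4.08 to 28.4). The code was tested on simulated data.

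The members and lists were chosen with earlier results of these data known. Named are the members, Crebbp, up to 4 called genes of each list or else the 2 with the smallest p, the 2 genes nearest to each tested member, and the 2 most abundant tested genes of each marker list. Some results that this rule covers are not reported here. Others are named as chosen after their values were seen or as examples of a count. Alternatives were DESeq2 1.42.0, limma-voom (limma 3.58.1) with and without quality weights, upper quartile or RLE scaling, no filter or only genes with at least 1 CPM in 3 libraries, quasi-likelihood without robust estimation, and omission of single libraries.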

Additional observations from a re-analysis of the deposited data

How the results depend on the processing

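With all 6 libraries, Nkx6-1 was called higher under all 8 other analyses (log2 fold change 1.419 to 1.435, adjusted p at most 0.0344). With 1 library left out its log2 fold change was 1.306 to 1.595, and it passed without each hairpin library but not without any of the controls. The number of members called was 2 with limma-voom using quality weights, and 0 to 2 with 1 library left out. Genes called in all numbered 168 in the main analysis (37 higher, 131 lower), 730 with DESeq2 (297 higher, 433 lower), 682 with quality weights (273 higher, 409 lower) and 0 to 389 with 1 library left out. The log2 fold change of Crebbp passed with DESeq2 (-0.42) and with quality weights (-0.46), and was -0.528 to -0.353 with 1 library left out, passing without hairpin 2. Lists with 0 calls in the main analysis gained calls as follows. Family paralogues had 1 with DESeq2, 1 with quality weights and 0 to 1 with 1 library left out. Other lineage regulators had 1 with DESeq2, with quality weights and without a filter, and 0 to 1 with 1 library left out. The bHLH list had 2 with DESeq2 and with quality weights and 0 to 1 with 1 library left out, and the LIM list had 1 with DESeq2 and with quality weights. Neuroendocrine differentiation genes had 5 with DESeq2, 2 with limma-voom, 5 with quality weights, 2 without a filter, 1 with upper quartile, with the 1 CPM filter and without robust estimation, and 0 to 3 with 1 library left out. The sign turned for Prox1 with quality weights (-0.055) and in analyses with 1 library left out (-0.129 to 0.096), namely without shNS (-0.02) and without hairpin 1 (-0.13). It also turned for Neurod1 without hairpin 2 (range with 1 library left out -0.197 to 0.578). The causes were not tested. The median of all tested genes was at most 0.024 on the log2 scale under every analysis. No paired analysis was possible because the numbers in the labels name different hairpins in the shCrebbp group, and only 1 control title holds a number, so the groups share fewer than 2 numbers. Depth limits the scarce members: Neurod1 rests on 10 to 31 reads a library, Nkx2-2 and Isl1 on 0 to 11, while Insm1, St18, Prox1 and Nfib rest on at least 1613.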
